A study of Homo sapiens with 16 samples.

Results

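Nucleosome fragments at 60 min of HKST were compared with those at 40 min of HKST over every promoter of the data, 21857 of 21857, which carry 21633 gene symbols. Promoters were taken whatever their values, from the 4 tables of 40 min HKST light, 40 min HKST heavy, 60 min HKST light and 60 min HKST heavy, and the untreated and 20 min samples were not used. The cells are GM12878, a human B-lymphoblastoid line transformed with Epstein-Barr virus and grown as 1 line, and HKST is heat-killed Salmonella typhimurium, which presents bacterial products without a live infection. All groups had HKST, were cross-linked with formaldehyde and were digested with micrococcal nuclease (MNase) at 20 U (light) or 200 U (heavy), followed by capture of the 2 kb around each transcription start site (TSS). The series holds 16 samples, and the 8 samples used here, 2 biological replicates in each group, are pooled in pairs within the 4 tables. The sample titles of replicate 1 and the names of the 4 tables carry the label NOHDI, which the paper does not explain. The titles of replicate 2 lack it.

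MNase cuts the DNA between nucleosomes and, with time and dose, the DNA that leaves a nucleosome for a moment. A nucleosome that is recovered mainly after a light digest is called MNase-sensitive, and one that is still recovered after a heavy digest is called MNase-resistant. Promoters of active genes tend to hold a nucleosome-free region just upstream of the TSS, flanked by the -1 nucleosome upstream and the +1 nucleosome downstream. MNase also prefers to cut at A and T, so that the base composition of a promoter affects what it releases.

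Sensitivity is log2 of the light over the heavy value, and its change is the value at 60 min minus that at 40 min, so that a positive change means more sensitive at 60 min. Values are fragment centers per 60 bp window scaled to the size of each table (rpm), averaged over the whole 2 kb or over -200 to 0 bp. The latter, which the paper takes for the -1 nucleosome, is called the -1 window here. In units of 1e+06 fragments, the tables rest on 9.43 (light) and 3.27 (heavy) at 40 min and on 10.1 and 7.04 at 60 min, so that the median promoter had 320 light and 106 heavy fragments in its 2 kb at 40 min and 342 and 227 at 60 min. The replicates are pooled, so no spread between replicates could be measured and no p-value is given. Changes of single promoters are set against an exact 95% interval of the ratio of ratios of fragment numbers, which covers counting error only, and "rose" and "fell" are used for single promoters whose interval leaves out 0. A difference between the 2 times cannot be told apart from how far each tube was digested or how each library turned out. As for the cell type, the nucleosome-free region was deep at genes of B cell identity (median log2 of the value from -100 to 50 bp over that of the 2 kb, -1.42 at 40 min and -1.49 at 60 min), near that of all promoters (-1.37 and -1.42), and shallow at markers of T and NK cells (-0.13 and -0.21) and of monocytes and granulocytes (-0.02 and -0.27).

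The sequences from -200 to 0 bp of 6 promoters are given here to show what lies next to the TSS where the results turn on single genes, read from hg19 5′ to 3′ on the strand of the gene. They were chosen after their values were seen. NFKBIA, VCAM1 and CCL3 became more sensitive over the 2 kb, C4orf22 over the -1 window, and CXCL13 and IER5 became less sensitive over the -1 window. Capitals mark matches, on either strand, to the GC box GGGCGG, the CCAAT box CCAAT, the TATA box TATAAA, the ETS motif CCGGAAG, the NRF1 palindrome, the PU.1 motif GAGGAAGT, the AP-1 motif TGANTCA or the NF-kB consensus.
NFKBIA, chr14:35873961-35874160, minus strand: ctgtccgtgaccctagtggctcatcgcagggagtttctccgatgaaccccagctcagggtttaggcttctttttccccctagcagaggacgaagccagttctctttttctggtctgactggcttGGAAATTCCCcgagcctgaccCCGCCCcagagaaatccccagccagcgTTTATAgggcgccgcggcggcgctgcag
VCAM1, chr1:101184996-101185195, plus strand: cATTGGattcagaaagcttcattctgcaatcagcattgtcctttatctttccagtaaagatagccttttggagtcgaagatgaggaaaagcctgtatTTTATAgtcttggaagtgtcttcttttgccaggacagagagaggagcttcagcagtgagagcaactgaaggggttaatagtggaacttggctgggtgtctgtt
CCL3, chr17:34417507-34417706, minus strand: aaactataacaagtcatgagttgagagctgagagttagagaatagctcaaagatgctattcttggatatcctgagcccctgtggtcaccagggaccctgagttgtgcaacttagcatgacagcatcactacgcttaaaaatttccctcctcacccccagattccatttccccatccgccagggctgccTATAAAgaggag
C4orf22, chr4:81256674-81256873, plus strand: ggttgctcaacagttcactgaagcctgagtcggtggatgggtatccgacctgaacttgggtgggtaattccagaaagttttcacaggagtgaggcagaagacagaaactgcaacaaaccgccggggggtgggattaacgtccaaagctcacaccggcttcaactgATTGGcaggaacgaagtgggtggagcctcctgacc
CXCL13, chr4:78432707-78432906, plus strand: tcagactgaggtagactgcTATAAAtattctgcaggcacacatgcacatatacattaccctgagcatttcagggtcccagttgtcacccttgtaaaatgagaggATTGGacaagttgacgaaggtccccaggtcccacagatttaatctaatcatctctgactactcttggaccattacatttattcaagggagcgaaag
IER5, chr1:181057438-181057637, plus strand: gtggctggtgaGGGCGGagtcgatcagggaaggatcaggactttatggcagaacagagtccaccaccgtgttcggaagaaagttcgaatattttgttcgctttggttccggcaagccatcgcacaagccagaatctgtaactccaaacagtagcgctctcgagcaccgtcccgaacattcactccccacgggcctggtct

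The NFKBIA window held 59.5% GC and 3 matches, all on the strand opposite to the gene, to the NF-kB consensus at -76 to -67 bp, the GC box at -55 to -50 bp and the TATA box at -28 to -23 bp, and no GENCODE gene overlaps it. VCAM1 (43% GC) had a CCAAT box at -199 to -195 bp and a TATA box at -103 to -98 bp, both on the opposite strand, and CCL3 (47.5% GC) had a TATA box on its own strand at -12 to -7 bp, with an exon of CCL3 annotated within the window. The C4orf22 window lies within the annotated gene FGF5 but in no exon and holds 1 CCAAT box, the CXCL13 window (43.5% GC) holds a TATA box and a CCAAT box, and the IER5 window (54.5% GC) holds 1 GC box and overlaps an exon of a gene on the opposite strand. Over all promoters, the GC box was found in 46.0% of these windows, the CCAAT box in 28.4%, the TATA box in 7.91%, the ETS motif in 7.86%, the NRF1 motif in 0.984%, the NF-kB consensus in 8.66%, the PU.1 motif in 1.62% and the AP-1 motif in 4.23%. A match is a run of letters and not a measured site.

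The average profile of the promoters was nearly the same at both times. All nucleosomes near the TSS peaked at the same positions, with the -3, -2 and -1 nucleosomes at -610, -400 and -210 bp, the lowest point of the nucleosome-free region at -90 bp and the +1, +2 and +3 nucleosomes at 150, 370 and 620 bp. Pearson's r between the profiles of total fragments (light plus heavy) was 0.996 over 200 positions, and 0.991 between the profiles of log2 light/heavy, where neighboring positions share fragments. The +1 nucleosome lost most: its peak was 2.41 rpm at 40 min and 2.23 rpm at 60 min in total, from 1.16 to 1.06 rpm in the light digest and from 1.24 to 1.17 rpm in the heavy digest. At the -1 nucleosome the peak was 2.29 and 2.27 rpm, and in the nucleosome-free region the lowest point was 1.27 and 1.24 rpm. At the -3 nucleosome it went the other way, from 2.68 to 2.74 rpm.

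**Figure D1:**
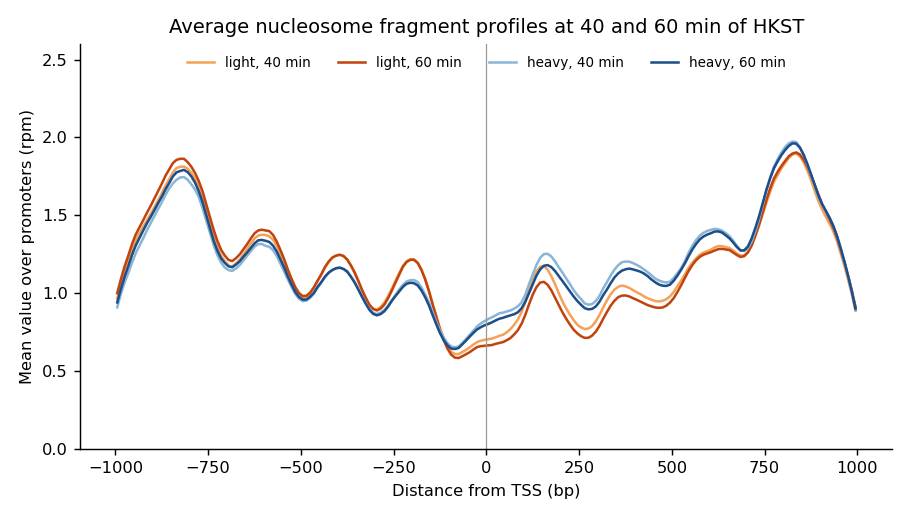
Average value over promoters (rpm) against the distance from the TSS (bp) for the light and heavy digests at 40 and 60 min. The 4 lines peak at the same positions, and at the +1 nucleosome, at 150 bp, both digests are lower at 60 min than at 40 min.

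Position by position, the light digest changed more than the heavy digest from the TSS to 540 bp downstream. The lowest change of the light average was -0.13 on the log2 scale, at 100 bp, and that of the heavy average was -0.09, at 140 bp. Both averages were lower from -300 bp to the TSS too, and farther upstream, from -1000 to -430 bp, both were higher at 60 min, by up to 0.05 (light, at -870 bp) and 0.06 (heavy, at -960 bp). The change of log2 light/heavy of the average stayed between -0.07, at 90 bp, and 0.03, at 910 bp. These are shifts of a few percent in the mean over all promoters: in the 100 bp around the +1 peak the light mean decreased by 8.46% and the heavy mean decreased by 5.50%, while in the -1 window they decreased by 2.20% and decreased by 2.00%.

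**Figure D2:**
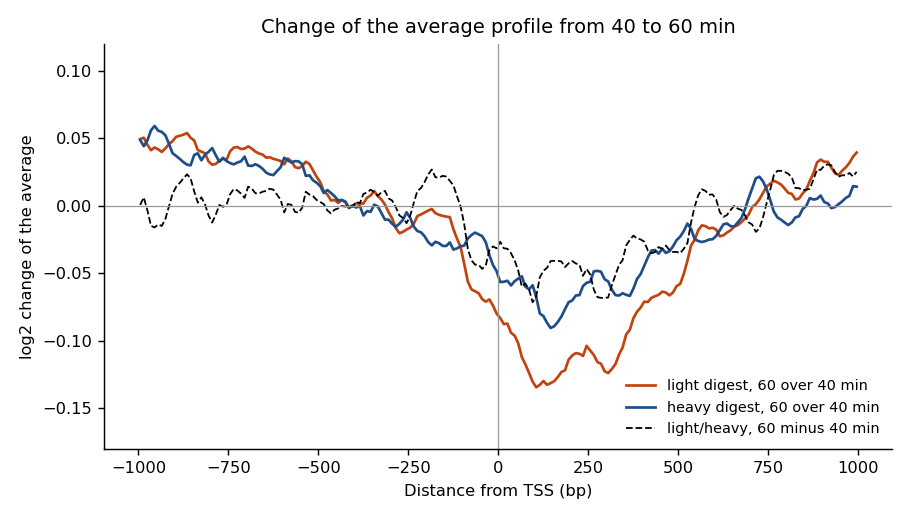
log2 change of the average profile from 40 to 60 min against the distance from the TSS (bp), for the light digest, the heavy digest and the ratio of light to heavy. Both digests are below 0 from about the TSS to 500 bp downstream, the light digest most, with its lowest value of -0.13 at 100 bp.

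For single promoters, total occupancy hardly moved. The median log2 change of total fragments over the 2 kb was -0.00051 (quartiles -0.10 and 0.10), and 0 of 21584 promoters with fragments changed 2-fold in either direction (background 0.00% and 0.00%). The median changes were -0.01 for the light digest (quartiles -0.14 and 0.12) and -0.00381 for the heavy digest (quartiles -0.13 and 0.13). Of the promoters above the median signal, KIAA1551 (also RESF1) was highest with a log2 change of 0.45, from 377 light and 63 heavy fragments at 40 min to 532 and 215 at 60 min, followed by SNORD1B, a small nucleolar RNA gene (0.42), and CTNND1, which encodes the cadherin partner p120 catenin (0.41). The lowest were C11orf21 (-0.47) and TSPAN32 (-0.44), neighbors that share most of their 2 kb and thus their fragments, and POMT1, a protein O-mannosyltransferase (-0.43). At POMT1 there were 333 light and 183 heavy fragments at 40 min and 280 and 270 at 60 min.

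Over the 2 kb, the promoters were spread more widely in sensitivity at 60 min. The quartiles of log2 light/heavy over the 2 kb were -0.30 and 0.36 at 40 min and -0.38 and 0.42 at 60 min, with medians of 0.04 at both times. The distance between the quartiles was 0.66 at 40 min and 0.80 at 60 min. Promoters 2-fold or more sensitive made up 1.26% at 40 min and 2.14% at 60 min, and those 2-fold or more resistant 1.19% and 3.11%. With all 4 tables thinned to the size of the smallest the distances were 0.67 and 0.81. Within each of 10 classes of GC content of the 2 kb the standard deviation over promoters was higher at 60 min, from 0.34 to 0.38 in the most AT-rich decile and from 0.41 to 0.48 in the most GC-rich. Promoters kept their order: Pearson's r between the times was 0.895 over 21584 promoters, 74.7% of the promoters above the upper quartile at 40 min and 80.5% of those below the lower quartile were so at 60 min, and 1 promoter went from above the upper to below the lower quartile. In the -1 window, with a median of 16 light and 4 heavy fragments at 40 min, r was 0.68 and these shares were 59.7% and 62.6%. The wider spread did not hold in every short window. The standard deviation was 0.95 at 40 min and 0.91 at 60 min around the +1 peak and 0.91 and 0.89 in the nucleosome-free region. It was 0.88 and 0.90 in the -1 window. For promoters above the median signal it was higher at 60 min around the +1 peak too, 0.86 and 0.89.

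**Figure D3:**
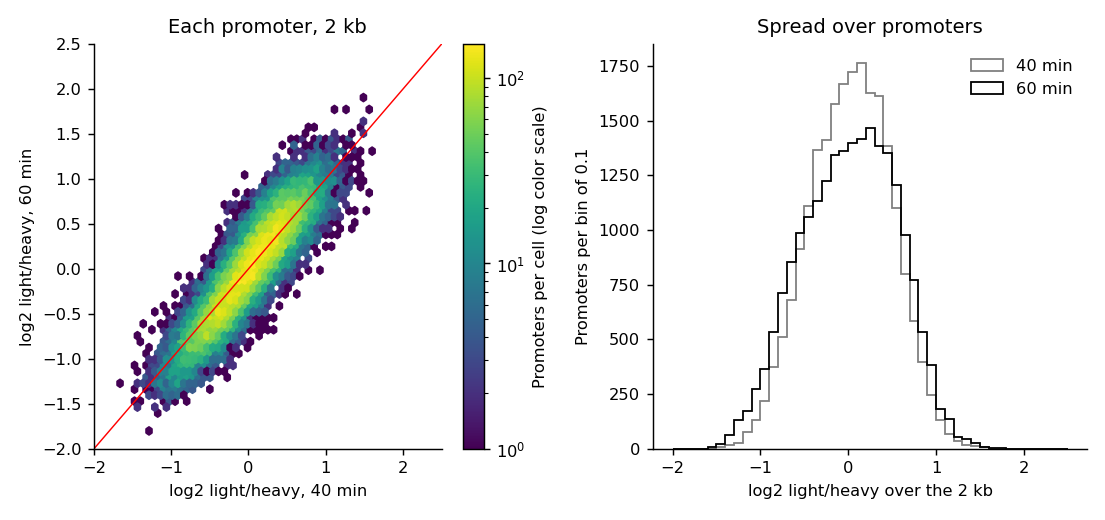
Left, log2 light/heavy over the 2 kb of each promoter at 60 min against that at 40 min, with the number of promoters per cell on a log color scale and the line of equal values in red. Right, the number of promoters per bin of 0.1 at each time: medians are 0.04 at both times, and the distance between the quartiles is 0.66 at 40 min and 0.80 at 60 min.

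Over the 2 kb, 913 promoters rose in sensitivity beyond counting error (4.24% of 21540 with an interval) and 1632 fell (7.58%), so that more promoters fell than rose. Promoters whose 2 kb overlap share fragments. Without them 729 rose (4.11% of 17738) and 1411 fell (7.95%). The gene lists below keep them, as in the histone list, where 47 of 72 promoters overlap another. A promoter that fell need not be resistant at 60 min. The falls also had more signal, which narrows the interval: the median total at 40 min was 2.99 rpm at the falls, 2.18 rpm at the rises and 2.28 rpm over all. The 2-fold mark was passed by 2 promoters upward (0.00927%) and 0 downward (0.00%). By digest, the light value rose at 13.3% and fell at 15.9% of promoters and the heavy value rose at 4.68% and fell at 5.59%. The light tables hold more fragments, which narrows their intervals, so that these shares do not compare the digests. The standard deviation of the log2 change over promoters was 0.200 in the light and 0.198 in the heavy digest. The same limit holds for the counts by digest that follow. Rises and falls of sensitivity drew on both digests: of the 913 rises, the light digest was higher beyond counting error in 489 and the heavy digest lower in 342, and of the 1632 falls, the light digest was lower in 1088 and the heavy digest higher in 412. The median change of the rises was 0.22 in the light digest and -0.29 in the heavy digest, and that of the falls -0.27 and 0.15. Thinned to equal depth, 671 promoters rose and 1002 fell, of which 380 and 667 were among those called at full depth. In the -1 window 259 promoters rose (1.41% of 18337) and 367 fell (2.00%). These shares are not above what counting error alone may give, so that a single call there may be counting error. In both windows 41 rose and 118 fell, but the 2 kb holds the -1 window, so that the calls share fragments. How many would be called in both for that reason alone was not tested. After thinning, 159 rose and 261 fell in the -1 window, of which only 60 and 113 were among those called at full depth. There the light value rose at 3.08% and fell at 4.21% of promoters and the heavy value rose at 1.14% and fell at 2.04%. The median change in the -1 window, -0.05, is not read as a shift, since it was 0 after thinning to equal depth.

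The promoters that rose and those that fell over the 2 kb are described here by their sequence, which the calls did not use. The falls had a median of 7 CpG dinucleotides from -200 to 0 bp and the rises 15, against 12 over all promoters with an interval. The ETS motif CCGGAAG, a site of ETS transcription factors, was found in 12.2% of the rises and 4.90% of the falls, against 7.91% of all. The NRF1 motif, bound by a regulator of mitochondrial and housekeeping genes, was found in 2.19% and 0.980%, against 0.998%. The PU.1 motif went the other way, with 1.10% and 1.84%, against 1.64%. The GC box was found in 52.4% of the rises and 41.7% of the falls and the NF-kB consensus in 8.65% and 10.7%. For the CCAAT box these shares were 31.5% and 22.9%, for the TATA box 6.68% and 8.09%, and for the AP-1 motif 3.72% and 3.74%. Seen from the motif, promoters with an ETS motif were the reverse of the whole: 111 rose (6.51%) and 80 fell (4.69%), with a median change of 0.03 against -0.02 over all. The nucleosome-free region was deeper at the rises (-1.94 at 40 min) than at the falls (-0.91), though this value comes from the same 40 min fragments. Chromosome 19 held 3.72% of the rises and 10.8% of the falls, against 6.79% of all promoters with an interval.

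Base composition moved with both digests. In the most AT-rich decile of promoters by the GC content of their 2 kb the median log2 change was 0.17 in the light digest and 0.16 in the heavy digest, and in the most GC-rich decile it was -0.17 and -0.12. Because both digests moved alike, their ratio moved less: the median change of sensitivity was 0.00 in the first of these classes and -0.07 in the last. The share of promoters that fell was 4.54% and 8.34% in these classes and was highest, 10.4%, in the class next to the most GC-rich. Across promoters the changes of the light and heavy digests had a Pearson's r of 0.26, and 58.5% of promoters had the same sign in both. The part of base composition in the changes of single promoters was not tested.

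NFKBIA, the gene of the inhibitor IkB alpha that holds NF-kB in the cytoplasm and is itself an NF-kB target, had one of the clearest rises. Its 2 kb held 287 light and 112 heavy fragments at 40 min and 383 and 156 at 60 min. Sensitivity went from -0.15 to 0.69, a change of 0.84 (interval 0.52 to 1.37), and in a ranking of all promoters by the lower end of the interval it stood at place 5. Of the 200 bp blocks of its 2 kb, those whose interval left out 0 lay upstream (TSS at 35873960 on chromosome 14). From -1000 to -800 bp the value went from 2.74 to 3.10 rpm in the light digest and from 2.80 to 1.51 rpm in the heavy digest, and from -600 to -400 bp from 0.891 to 1.72 rpm and from 1.5 to 0.803 rpm. In these blocks the sensitivity rose by 1.01 (0.24 to 1.97) and 1.68 (0.53 to 3.07). The 200 bp just upstream of the TSS, which carry the NF-kB consensus printed above, held 7 light and 0 heavy fragments at 40 min and 2 and 1 at 60 min, so that nothing can be said of a nucleosome there.

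VCAM1, the vascular cell adhesion molecule that binds integrins of leukocytes, held 385 light and 106 heavy fragments at 40 min and 571 and 175 at 60 min. Its sensitivity went from 0.30 to 1.07, a change of 0.77 (0.44 to 1.26). The -1 window took part, with 70 light and 26 heavy fragments at 40 min and 109 and 34 at 60 min, and rose by 1.17 (0.34 to 2.17). Here, unlike at NFKBIA, the 200 bp next to the TSS held enough fragments for an interval. The other blocks of VCAM1 had changes from -0.15 to 2.15 with intervals that include 0.

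**Figure D4:**
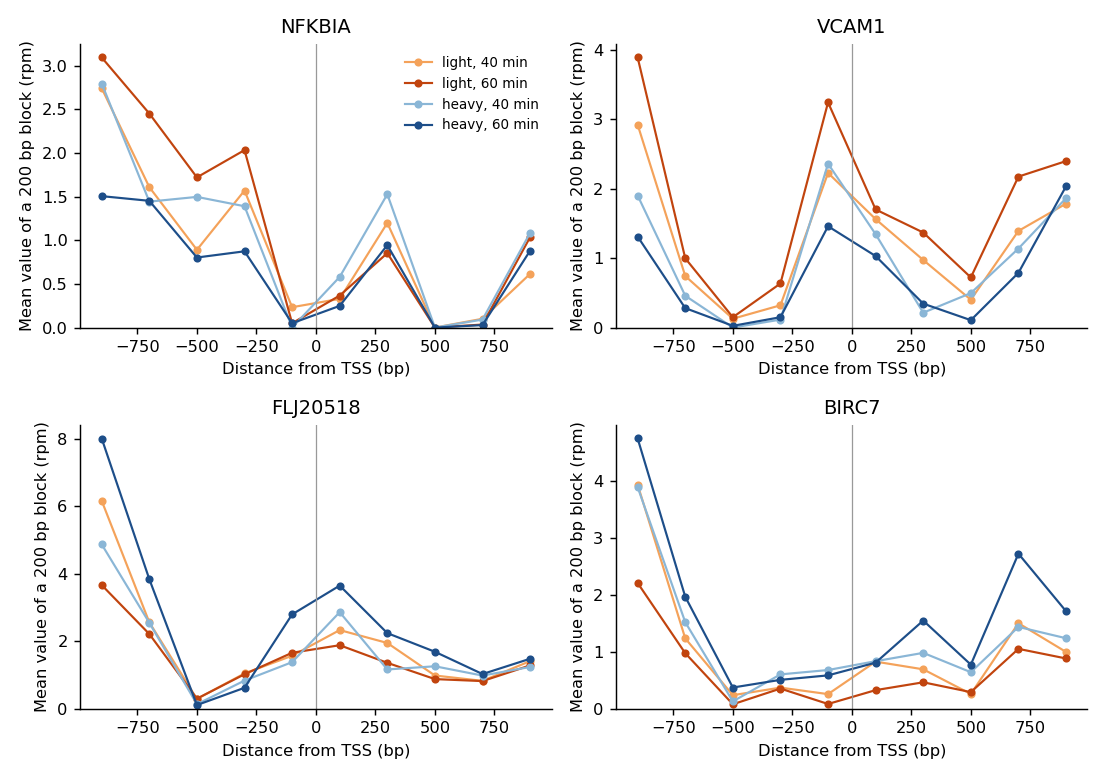
Mean value (rpm) of each 200 bp block against the distance of its center from the TSS (bp) at 4 promoters, in the light and heavy digests at 40 and 60 min. In the block from -1000 to -800 bp the light line is higher and the heavy line lower at 60 min at NFKBIA and VCAM1, and the reverse at FLJ20518 and BIRC7, and NFKBIA is near 0 just upstream of the TSS.

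The NF-kB target list, 39 genes that NF-kB is known to drive, had 4 rises (10.3%, against 4.24% of all promoters) and 1 fall (2.56%, against 7.58%) over the 2 kb and a median change of 0.09 (quartiles -0.13 and 0.26), against -0.02 for all promoters. Besides NFKBIA, the rises were the chemokines CCL3 and CCL4, which draw monocytes and T cells, and TNFAIP3, the ubiquitin-editing enzyme A20 that turns NF-kB signaling down. CCL3 held 740 light and 174 heavy fragments at 40 min and 965 and 324 at 60 min, a change of 0.47 (0.19 to 0.80). CCL4, its neighbor on chromosome 17, went from 500 and 132 to 735 and 284, a change of 0.43 (0.11 to 0.81). TNFAIP3 went from 296 and 129 to 351 and 228, with a change of 0.39 (0.04 to 0.83) whose lower end is close to 0. The fall was TNIP1, a partner of A20 that also limits NF-kB, with 369 light and 78 heavy fragments at 40 min and 340 and 213 at 60 min, a change of -0.51 (-1.01 to -0.12). Negative regulators of the pathway thus stood on both sides.

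Of 56 interferon-stimulated genes 7 rose (12.5%, against 4.24% of all promoters) and 3 fell (5.36%, against 7.58%), with the highest median change of any list, 0.14 (quartiles -0.05 and 0.33). The rises were UBE2L6, the conjugating enzyme of ISG15 (0.46), EPSTI1 (0.49), DDX60, a helicase of antiviral sensing (0.39), PARP14, a mono-ADP-ribosyltransferase (0.32), IFIT1 and IFIT2, which bind viral RNA (0.41 and 0.38), and ISG15, the ubiquitin-like modifier (0.41, interval 0.01 to 0.93). ISG15 had 262 light and 88 heavy fragments over the 2 kb at 40 min and 326 and 159 at 60 min, and in its -1 window 56 and 9 and then 111 and 14, a change of 1.26 whose interval, -0.12 to 2.77, includes 0. IFIT1 went from 324 and 85 to 500 and 194 fragments, and here total occupancy was also higher, by 0.32 on the log2 scale. The falls were LY6E (-0.46), IFI27 (-0.30) and IFITM2 (-0.30). Among 39 immediate early genes 3 rose (7.69%), MYC (0.61), the mRNA-decay factor ZFP36L2 (0.59) and CTGF (0.38), and 1 fell, CSRNP1 (-0.37), with a median change of 0.10 over the 2 kb. In the -1 window the median change was -0.08, and of 37 promoters 1 passed 2-fold up (2.70%, against 7.11% of all) and 8 passed 2-fold down (21.6%, against 8.21%). Of the 27 with an interval, only 2 fell there beyond counting error (7.41%, against 2.00% of all) and 0 rose (against 1.41%). Of the 37, 27 lie below the median signal of the window. JUNB and EGR1, transcription factors of the first wave, had changes of 0.10 (-0.26 to 0.47) and -0.05 (-0.60 to 0.43). Of 35 Toll-like receptor signaling genes 0 rose and 0 fell, with a median change of 0.10. NFKB2, an NF-kB subunit, and SPI1, which encodes PU.1, had changes of 0.09 (-0.40 to 0.61) and 0.04 (-0.24 to 0.33).

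Of the 25 promoters with the highest lower end of the interval, some are named here that were picked after their values were seen, so that they stand for no group. CD274, which encodes the ligand PD-L1, went from 235 light and 60 heavy fragments to 360 and 97, a change of 0.80 (0.38 to 1.47). IL21R, the interleukin-21 receptor, went from 228 and 86 to 298 and 124, a change of 0.76 (0.38 to 1.35). KYNU, the kynureninase of tryptophan breakdown, changed by 0.82 (0.40 to 1.61) and HLA-F, a class Ib histocompatibility gene, by 0.89 (0.43 to 1.79). MIR3142, a microRNA gene on chromosome 5, went from 484 and 108 to 678 and 171, a change of 0.76 (0.43 to 1.23). The ranking was led by other genes, BNIP2, a BCL2-interacting protein (0.97, interval 0.62 to 1.62), LIX1 (1.05, 0.61 to 1.85), RABGGTB, a subunit of the enzyme that attaches lipid to Rab GTPases (0.93, 0.53 to 1.66), and the flippase gene ATP10B (0.91, 0.52 to 1.60). LIX1, 1 of the 2 promoters past 2-fold beside UBTFL1 (1.11, from 32 light and 12 heavy fragments to 54 and 10), held 114 light and 52 heavy fragments at 40 min and 233 and 91 at 60 min.

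In the falls over the 2 kb named here the light value was lower and the heavy value higher at 60 min. SNORD88B, a small nucleolar RNA gene, held 361 light and 156 heavy fragments at 40 min and 233 and 413 at 60 min, a change of -0.93 (-1.40 to -0.66). FLJ20518 went from 526 and 161 to 438 and 519, a change of -0.89 (-1.27 to -0.62). In its block from -1000 to -800 bp the light value went from 6.17 to 3.67 rpm and the heavy value from 4.87 to 8.01 rpm. ZNF701, a zinc finger gene, changed by -0.85 (-1.36 to -0.50) and TMC4, a channel-like membrane protein, by -0.82 (-1.29 to -0.52). BIRC7, an inhibitor of apoptosis, and CHSY3, a chondroitin synthase, named after their values were seen, changed by -0.91 (-1.41 to -0.61) and -0.89 (-1.46 to -0.61). At BIRC7 the light digest lost, from 312 to 219 fragments, while the heavy digest went from 126 to 358.

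Across the 26 gene lists, those more sensitive than all promoters at 40 min tended to have a higher change than all promoters, and the others a lower one. Of 18 lists above the median sensitivity of all promoters at 40 min, 14 had a change above that of all promoters, and of the 8 other lists 7 had a change below it, where the 40 min value enters both measures. Against 4.24% rises and 7.58% falls over all promoters, the shares in most lists rest on a few promoters, and 2 kb medians of the proteasome, chaperone, DNA replication, housekeeping and taste receptor lists changed sign under at least 1 alternative. The mitochondrial ribosomal proteins went from a median of 0.44 to 0.53 with a median change of 0.11, and of 73 promoters 5 rose and 3 fell. Translation factors and tRNA synthetases changed by 0.11, with 7 rises and 1 fall among 67. RNA polymerase II initiation genes changed by 0.09, with 4 rises (5.26%) and 2 falls (2.63%) among 76. Cytosolic ribosomal proteins changed by 0.04, with 5 rises and 1 fall among 81. The rises included RPL3, a core protein of the large ribosomal subunit (364 light and 110 heavy fragments, then 432 and 154, a change of 0.70, 0.35 to 1.19), MRPL44 of the mitochondrial ribosome (0.64, 0.29 to 1.16) and the initiation factor subunit EIF3B (0.43, 0.06 to 0.89). The falls were RPS21, of the small subunit (-0.54, -0.90 to -0.27), the glutamyl-prolyl tRNA synthetase EPRS (-0.72, -1.67 to -0.16), the mitochondrial ribosomal genes MRPS2 (-0.55), MRPL13 (-0.33) and MRPL43 (-0.33), and in the initiation list TAF9B (-0.60) and MED9 (-0.42). Genes of B cell identity changed by 0.11 over the 2 kb and by -0.10 in the -1 window, and over the 2 kb 1 of 38 rose, the Fc receptor-like FCRLA (0.43, 0.08 to 0.86), and 1 fell, the B cell coreceptor CD72 (-0.28, -0.57 to -0.01). CD79A, a chain of the B cell receptor, had a change of -0.10 (-0.53 to 0.31).

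Other lists of genes used in every cell had medians from -0.01 to 0.06. Oxidative phosphorylation subunits changed by 0.05, with 4 rises and 1 fall among 75, the spliceosome by 0.05, with 2 rises and 0 falls among 54, DNA replication factors by 0.06, with 2 rises and 1 fall among 35, the proteasome by 0.03, with 2 rises and 2 falls among 39, and the housekeeping list by -0.01, with 3 rises and 1 fall among 27. Chaperones and heat shock proteins changed by 0.01, with 10 falls (12.3%, against 7.58% of all promoters) and 4 rises (4.94%, against 4.24%) among 81. The rises were 2 subunits of the cytosolic chaperonin, CCT4 (0.44) and CCT5 (0.38), and the J-domain proteins DNAJA4 (0.50) and DNAJC15 (0.51). The falls included 5 promoters of small heat shock proteins, led by HSPB9 (-0.59) and HSPB3 (-0.48), among which HSPB2 and HSPB2-C11orf52 are the same region. ACTB, which encodes beta-actin, had 132 light and 49 heavy fragments at 40 min and 131 and 128 at 60 min, a change of -0.32 (-1.01 to 0.23).

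**Figure D5:**
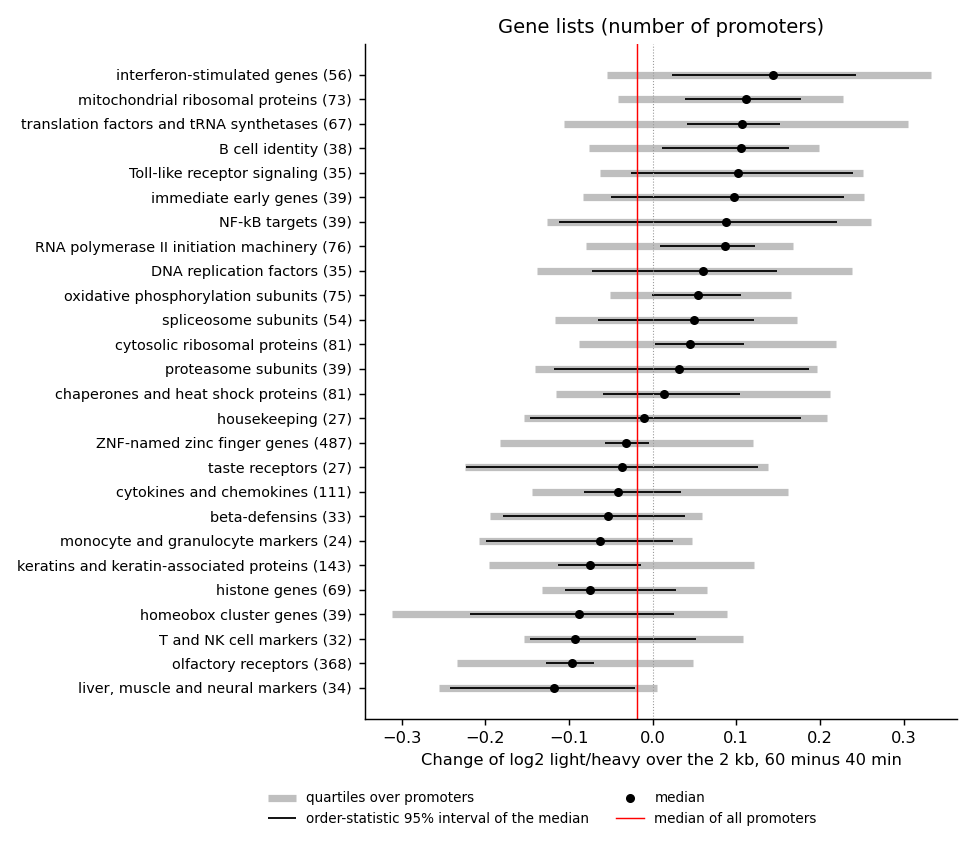
Median change of log2 light/heavy over the 2 kb from 40 to 60 min for each of 26 gene lists (points), with the quartiles over promoters (gray) and the order-statistic 95% interval of the median over promoters (black), and the median of all promoters as a red line. Interferon-stimulated genes are highest at 0.14 and markers of liver, muscle and nerve lowest at -0.12, and the quartiles of all lists overlap.

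Olfactory receptors, expressed in the nose, changed by a median of -0.10 (quartiles -0.23 and 0.05), and of 368 promoters 37 fell (10.1%, against 7.58% of all) and 3 rose (0.815%, against 4.24%). They are AT-rich (median GC content of the 2 kb 41.1%), and of all promoters in the same decile of GC content 5.44% fell. OR51V1 was the clearest, with 356 light and 80 heavy fragments at 40 min and 385 and 300 at 60 min, a change of -0.70 (-1.22 to -0.36), which lay in the heavy digest. Homeobox cluster genes, which pattern the embryo, changed by -0.09, and 9 of 39 fell and 1, HOXC4 (0.46), rose. HOXA6 went from 475 and 210 to 367 and 483, a change of -0.52 (-0.88 to -0.25). Keratins and keratin-associated proteins changed by -0.07, with 16 falls and 3 rises among 143, and ZNF-named zinc finger genes by -0.03, with 48 falls (9.86%) and 20 rises (4.11%) among 487. Markers of liver, muscle and nerve had the lowest median, -0.12, with 3 falls among 34 (8.82%, near the 7.58% of all promoters), which include the astrocyte gene GFAP (-0.39) and the antitrypsin gene SERPINA1 (-0.36). Of 32 T and NK cell markers 3 fell (9.38%, also near it), all T cell surface proteins, CD8A (-0.37), CD8B (-0.50) and CD5 (-0.31), and 0 rose. At CD8A there were 521 light and 218 heavy fragments at 40 min and 473 and 523 at 60 min. Monocyte and granulocyte markers changed by -0.06, with 2 falls among 23 (8.70%), ELANE (-0.53) and FCGR3A (-0.36).

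Histone genes were the most sensitive list at both times, 0.66 and 0.63, with a median change of -0.07. Among 68 promoters 1 rose (1.47%, against 4.24% of all), HIST1H4D (0.61), and 0 fell (against 7.58%). Cytokines and chemokines changed by -0.04 with 6 rises (5.45%) and 9 falls (8.18%) among 110, near the 4.24% and 7.58% of all promoters. The rises included IL18 (0.61) and CXCL11 (0.49) and the falls IL9 (-0.59) and CCL26 (-0.54), which thus do not set the list apart. Beta-defensins changed by -0.05, with 1 fall among 30 (3.33%), DEFB123 (-0.37). Taste receptors changed by -0.04, with 1 rise among 27 (3.70%), TAS1R1 (0.61), and 2 falls (7.41%), TAS2R30 (-0.35) and TAS2R41 (-0.29).

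In the -1 window, the values of single promoters differed more between the times than over the 2 kb, but on fewer fragments, which widens the scatter. Whether single nucleosomes changed more was not tested. The changes named here and below are the extremes of many promoters, and the shares called were not above what counting error may give. A change of 1 or more on the log2 scale was found at 1448 promoters (7.11% of 20364) and of -1 or less at 1671 (8.21%), most of them within counting error. Of the promoters above the median signal whose interval left out 0, the largest rise was C4orf22, a cilium-associated gene, with 18 light and 18 heavy fragments at 40 min and 48 and 12 at 60 min, a change of 2.64 (1.56 to 4.47). MEF2A, a MADS-box transcription factor, went from 41 and 23 to 54 and 9, a change of 2.46 (1.41 to 4.20). At both promoters the heavy digest held fewer fragments at 60 min although its table is deeper. TM9SF2, an endosomal membrane protein, changed by 2.45 (1.17 to 7.04) and TMEM231, of the base of the cilium, by 2.42 (1.21 to 4.57). RAB3GAP2, a regulator of Rab GTPases, changed by 2.41 (1.00 to 6.01), EFCC1 by 2.27 (0.90 to 5.34) and the microRNA genes MIR3913-2 and MIR449A by 2.48 (0.69 to 5.36) and 2.21 (0.98 to 4.13). Of these 8, C4orf22, TM9SF2, TMEM231 and MIR449A also rose over the 2 kb. The 2 kb holds the -1 window, so that both values share fragments, here and below.

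The falls of the -1 window were of like size. CXCL13, the chemokine that draws B cells into follicles, went from 20 light and 3 heavy fragments to 12 and 23, a change of -2.38 (-5.25 to -0.48), while its 2 kb changed by 0.18 (-0.28 to 0.71). IER5, an immediate early gene, went from 16 and 1 to 17 and 22, a change of -2.37 (-8.82 to -0.36), where a single heavy fragment at 40 min sets the size. HTR1B, a serotonin receptor, went from 15 and 5 to 5 and 27, a change of -2.37 (-5.36 to -0.76), and fell over the 2 kb as well (-0.34, -0.70 to -0.06). DMTN, an actin-bundling protein, changed by -2.32 (-4.86 to -0.99), DBX2, a homeobox gene, by -2.26 (-4.91 to -0.57) and HM13-AS1, an antisense RNA gene, by -2.36 (-6.16 to -0.92). At the microRNA genes MIR3945 and MIR4676 the heavy digest held 0 fragments at 40 min and 18 and 13 at 60 min, so that only the upper ends of the intervals, -0.85 and -0.28, are defined.

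Some genes of the lists stood out by this window. CD8A, a coreceptor of T cells, had 56 light and 19 heavy fragments at 40 min and 28 and 60 at 60 min. This is a change of -1.55 (-2.73 to -0.59), the same direction as over its 2 kb, of which the window is part. ZNF99, a zinc finger gene, changed by -2.13 (-4.03 to -0.76) and the hair keratin KRT34 by -2.0 (-5.80 to -0.23). CD40, the receptor for T cell help on B cells, went from 25 and 8 to 28 and 4, a change of 1.60 (0.05 to 4.51), with 0.14 (-0.29 to 0.57) over the 2 kb. TICAM1, the TRIF adaptor of Toll-like receptors, changed by 1.52 (0.07 to 3.45), RPL7L1, a ribosomal protein-like gene, by 1.38 (0.19 to 2.89) and SNRPD3, a core spliceosomal protein, by 1.48 (0.37 to 2.91). PSMB4, a proteasome subunit, went from 78 and 5 to 51 and 21, a change of -1.49 (-3.51 to -0.10). Among the olfactory receptors OR2M2 (2.04, 0.86 to 3.99) and OR52I1 (-2.08, -4.29 to -0.47) went opposite ways.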

How the data were processed

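The deposited values, in rpm, are what the authors made from paired-end reads aligned to hg19: centers of fragments of 140 to 200 bp, counted in 60 bp windows at 10 bp steps over the 2 kb around each TSS and scaled to the table's fragment total, with the 2 replicates of each group pooled. Bowtie2 2.2.2, bedtools and SAMtools are named in the submitters' processing notes. The 4 tables of 40 and 60 min were used, and the 4 tables of other times were not used here. Low values were whole steps of 0.5 fragments (within 0.05), so fragment numbers could be computed from the rpm values, 1 fragment entering 6 windows. Sensitivity is log2((light + 0.118)/(heavy + 0.118)), the pseudocount being 0.1 of the mean. Each promoter's ratio of ratios was given an exact conditional 95% interval, which covers counting error only. Python 3.11.15, numpy 2.4.6, scipy 1.17.1, pysam 0.24.0 and matplotlib 3.10.9 were used, and the code was tested on simulated data. Promoters were named by rule: the 8 largest rises and falls of the -1 window and the 4 largest of the 2 kb and 3 largest of occupancy above the median signal, the largest rise and fall of each list, and 9 genes of the pathway and cell type; other promoters, including list members that rose or fell over the 2 kb, were named after their values were seen. The gene lists and members were chosen with earlier results of these data known. Alternatives were other pseudocounts, windows, scalings, a signal filter, thinning to equal depth and 99% intervals. Some of these, for the 2 kb, were added after seeing the data.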

Additional observations from a re-analysis of the deposited data

How the results depend on the processing

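No list median whose interval left out 0, and no named promoter's change whose interval did, changed sign, but values near 0 did: 35 alternatives of the -1 window list medians, 7 of the 2 kb list medians (proteasome, chaperones, DNA replication, housekeeping and taste receptors), and the occupancy change. No paired analysis was possible because the replicates are pooled in each table, and for the same reason no replicate could be left out. All 348 alternatives of the 174 values of named promoters and 437 of the 442 alternatives of the 52 list medians stayed within the limits set. For named promoters the alternatives were only the pseudocounts of 0.5 and 0.02 of the mean, and the limits were their own counting intervals. Their values were not computed again after thinning, in another window or at 99% intervals. With a pseudocount of 0.5 of the mean, the median change was -0.010 in the -1 window and -0.00549 over the 2 kb, 0.609% and 0.771% of promoters passed 2-fold up and down in the -1 window, and the olfactory receptor median was -0.061. With 0.02 of the mean these were -0.094, -0.024, 13.3% and 17.1%, and the -1 window medians of DNA replication factors and histone genes were -0.56 and -0.59. Above the median signal the medians were -0.066 and -0.050, occupancy -0.018, and the 2-fold shares 4.37% and 5.75%. Thinned to equal depth, the -1 window median was 0, the shares were 15.0% up and 14.6% down, the opposite order to that at full depth, 159 promoters rose in the -1 window, 1002 fell over the 2 kb, and the proteasome -1 window median was -0.43. In the window from -250 to -100 bp the shares were 9.22% and 10.9%, and the median of RNA polymerase II initiation genes was -0.038 in place of 0.14. At 99% intervals 54 promoters rose and 74 fell in the -1 window, and 322 and 639 over the 2 kb. The shares in the -1 window, 0.294% and 0.404%, were again not above what counting error alone may give. With a mean in place of the median the 2 kb change was -0.013, and with equal totals the occupancy change was 0.00794. With deciles set over all promoters, and by GC content of the 2 kb in place of the 200 bp, the highest minus the lowest decile was -0.033 in place of -0.070 for the -1 window and -0.066 in place of -0.029 for the 2 kb. The cause was not tested. A median of 4 heavy fragments in the -1 window at 40 min limits what can be seen there.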

Other observations

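By chromosome, the median change of sensitivity over the 2 kb was lowest on chromosome 19 (-0.08) and chromosome X (-0.06), followed by chromosomes 21 (-0.04) and 20 (-0.04), and highest on chromosome 18 (0.02). Chromosome 19 carries many zinc finger gene clusters, of which ZNF701 and ZNF99, both with a fall over the 2 kb, are on this chromosome.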
